A study of Mus musculus with 10 samples.

Results

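The genes described here are 10 interferon-induced genes in 2 functional groups, taken by name from the 24538 genes in the count files. They and the related lists were chosen with earlier results of these data known, so the counts called among them are descriptions and not independent support. The ISG15 machinery comprises Isg15, Uba7, Ube2l6, Herc6 and Usp18, and the antiviral effectors are Mx1, Mx2, Rsad2, Bst2 and Ifi44. All 10 were among the 11571 genes tested, those that reached a mean of 1 FPKM in either group and had at least 1 count. FPKM is the number of fragments per kilobase of transcript scaled to the mapped fragments of a library. Mx2 and Ifi44 passed this limit only through the metastasis samples, and entry through 1 group favours a call toward that group.

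RNA-seq compared macrophages from lung metastases with macrophages from normal lungs of wild type C57BL6/J mice aged 8 to 10 weeks. Metastases were seeded by tail vein injection of E0771-LG cells, a mouse mammary tumour line, into syngeneic females at 6 to 8 weeks of age, and the labels give pools of 2 to 4 mice for dissected metastases. Metastasis-associated macrophages (MAMs) were sorted as CD11B+CD11C- and resident alveolar macrophages (RAMs) as CD11B-CD11C+ cells. Both were also CD45+, F4/80+ and MRC1+, negative for LY6C and high in forward scatter, and were sorted after digestion in the presence of alpha-amanitin and actinomycin D. There were 5 libraries of each, with 55391447 to 87523247 counts on genes in MAMs and 50746305 to 72150650 in RAMs. The groups differ in tissue state and in sorted cell type at once, and these cannot be told apart. The study's methods give a wider range for the pools. The labels do not say whether each RAM library came from a single mouse. The methods describe a sample as either a single mouse or a pool of metastases. P-values are taken to measure the spread between these samples.

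ISG15 is a ubiquitin-like protein that interferon induces and that is attached to other proteins by an enzyme chain parallel to that of ubiquitin. Uba7 activates it, Ube2l6 carries it, Herc6 is the main ligase in the mouse, and Usp18 removes it again and also restrains signalling from the type I interferon receptor. The effector genes encode proteins that act on different steps of viral growth, and macrophages are known to induce both groups strongly in response to type I interferon.

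The labelled cell types were compared with their markers. Itgam, the gene of CD11B, had a mean FPKM of 1277 ± 90.0 in MAMs and 13.5 ± 1.02 in RAMs (SD, n = 5 each), and Itgax, the gene of CD11C, had 38.1 ± 9.63 and 228 ± 18.8. Of 9 alveolar macrophage genes, 8 were called lower in MAMs, 1 of them (Krt79) tested through RAMs alone, and none higher, where a call is a fold change over 2 with an adjusted p under 0.05. Of all genes tested 15.3% were called higher and 15.1% lower. Chil3, the most abundant of them in RAMs, had a mean FPKM of 61.7 in MAMs and 6879 in RAMs. Marco, which was not called, was the most abundant in MAMs, at 129 FPKM against 208 in RAMs. Of 7 genes of recruited macrophages 6 were called higher, 1 of them (Cx3cr1) tested through MAMs alone, and Apoe, the most abundant in MAMs, had a mean FPKM of 1165 in MAMs and 36.7 in RAMs. In RAMs C5ar1, which was not called, was the highest of the 7, at 253 FPKM against 407 in MAMs. Ly6c2 was at 15.5 ± 6.95 FPKM in MAMs (SD, n = 5) although the sort took LY6C- cells, and at 0.282 ± 0.132 in RAMs. Ly6c1 and Ly6c2 are similar copies between which reads could be split.

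All 10 genes were called higher in MAMs, against 15.3% of all genes tested, and in all 10 every MAM library lay above every RAM library, against 23.7% of all genes tested. Log2 fold changes ran from 1.22 for Uba7 to 7.22 for Ifi44. The median was 3.03 for the ISG15 machinery and 6.69 for the antiviral effectors, and -0.02 for all genes tested. In bulk samples fewer cells expressing a gene and less RNA per cell cannot be told apart. The levels of all 10 genes in each library are plotted first.

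**Figure D1:**
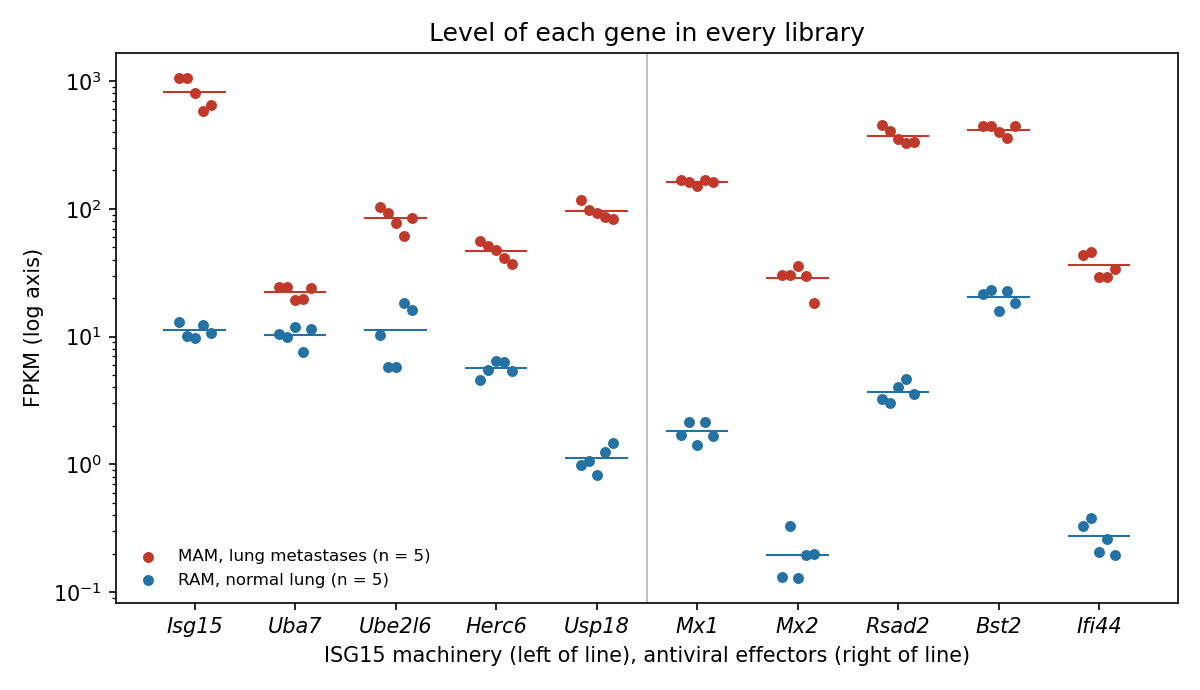
FPKM (log axis) of the 10 genes in each MAM library (red) and RAM library (blue), replicates 1 to 5 from left to right, with a line at each mean (n = 5). MAM libraries lay above RAM libraries for every gene. The gap between the lowest MAM and the highest RAM library was smallest for Uba7 and largest for Ifi44.

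Isg15, the modifier itself, lies on the minus strand at chr4:156199424-156200818 of GRCm38 (GENCODE annotation, as for all positions of genes given here). It was at 1058, 1050, 802, 581 and 652 FPKM in MAM replicates 1 to 5 and at 13, 10.1, 9.67, 12.4 and 10.7 FPKM in RAM replicates 1 to 5. MAM replicates 1 and 2 were the highest and replicate 4 the lowest, and the groups were far from overlapping. In CPM, counts scaled by library size and TMM factor, the means were 453 ± 119 and 5.90 ± 0.804 (SD, n = 5 each). The rise was 6.26 ± 0.195 on the log2 scale (SE; edgeR quasi-likelihood test, Benjamini-Hochberg adjusted p = 8.7e-13), and this test was used for all single genes.

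Uba7, the activating enzyme at chr9:107975505-107984060 on the plus strand, was at 24.4, 24.6, 19.5, 19.7 and 24.2 FPKM in MAM replicates 1 to 5. In RAM replicates 1 to 5 it was at 10.4, 9.94, 12.0, 7.55 and 11.5 FPKM. The groups did not overlap, but the lowest MAM library was only 1.88 times the highest RAM library in CPM. On the log2 scale MAMs were higher by 1.22 ± 0.112 (SE; edgeR, adjusted p = 2.2e-07), and 0.99 with scaling to library totals alone, which is below the fold limit. In GENCODE, exons of Uba7 share 233 bases with another gene on the same strand, Gm20661. The authors counted with RefGene models, and whether these hold Gm20661 was not checked, so the counts of Uba7 are uncertain to that extent.

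Ube2l6, the conjugating enzyme at chr2:84798828-84810335 on the plus strand, was at 104, 93.5, 77.3, 61.1 and 85.4 FPKM in MAM replicates 1 to 5. The RAM replicates were at 10.3, 5.77, 5.83, 18.2 and 16.1 FPKM. Among RAMs, replicates 4 and 5 were high and replicates 2 and 3 low, with a coefficient of variation of 49.3% in CPM, the largest of the 10 genes in either group. The rise was 2.95 ± 0.294 in log2 units (SE; edgeR, adjusted p = 5.2e-07).

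Herc6, the ligase at chr6:57581000-57664632 on the plus strand, was at 56.5, 51.5, 47.4, 41.3 and 37.1 FPKM in MAM replicates 1 to 5 and at 4.58, 5.48, 6.44, 6.31 and 5.40 FPKM in RAM replicates 1 to 5. MAM replicate 1 was the highest and replicate 5 the lowest, still 5.92 times the highest RAM library in CPM. On the log2 scale its rise came to 3.03 ± 0.123 (SE; edgeR, adjusted p = 1.6e-11). In GENCODE, exons of Herc6 share 1269 bases with the annotated transcript Gm45193 on the same strand. Whether the RefGene models used for counting hold Gm45193 was not checked, which leaves the counts of Herc6 uncertain.

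Usp18, the protease that removes ISG15, lies at chr6:121245906-121270917 on the plus strand. It was at 118, 97.7, 92.3, 86.7 and 82.7 FPKM in MAM replicates 1 to 5 and at 0.996, 1.06, 0.831, 1.26 and 1.47 FPKM in RAM replicates 1 to 5. RAM libraries held 111 to 130 counts of it and MAM libraries 7595 to 10655, with no overlap. Its rise came to 6.27 ± 0.151 in log2 units (SE; edgeR, adjusted p = 5.4e-14), close to that of Isg15. In GENCODE its exons share 124 bases with Gm44148 on the opposite strand. The strand setting of the counting is not given in the sources used here, and whether the RefGene models hold Gm44148 was not checked.

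The effectors Mx1 and Mx2 are dynamin-like GTPases that lie 72400 bases apart on chromosome 16 and point in opposite directions. C57BL/6 mice are known to carry a deletion in Mx1 and a frameshift in Mx2, so the RNA measured here does not stand for an intact protein. Mx1, at chr16:97447035-97462907 on the minus strand, was at 168, 161, 152, 169 and 161 FPKM in MAM replicates 1 to 5. It was at 1.71, 2.13, 1.42, 2.13 and 1.66 FPKM in RAM replicates 1 to 5. Its MAM libraries were the most even of the 10 genes, with a coefficient of variation of 5.62% in CPM. On the log2 scale MAMs were higher by 6.56 ± 0.135 (SE; edgeR, adjusted p = 8.6e-15).

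Mx2, at chr16:97535308-97560900 on the plus strand, is annotated as a polymorphic pseudogene. It was at 30.6, 30.4, 35.6, 29.8 and 18.2 FPKM in MAM replicates 1 to 5 and at 0.131, 0.327, 0.130, 0.195 and 0.198 FPKM in RAM replicates 1 to 5. MAM replicate 5 was the lowest of its group, and the RAM libraries held only 19 to 64 counts. The rise was 6.95 ± 0.286 in log2 units (SE; edgeR, adjusted p = 2.0e-11). Mx1 and Mx2 are similar in sequence, and reads could be split between them.

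Rsad2 encodes viperin, a radical SAM enzyme that makes a chain-terminating nucleotide, and lies at chr12:26442746-26456452 on the minus strand. It was at 457, 404, 354, 330 and 331 FPKM in MAM replicates 1 to 5 and at 3.24, 3.0, 4.00, 4.67 and 3.56 FPKM in RAM replicates 1 to 5. The lowest MAM library was 69.8 times the highest RAM library in CPM. On the log2 scale its rise came to 6.69 ± 0.157 (SE; edgeR, adjusted p = 4.0e-14).

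Bst2 encodes tetherin, which holds budding virus particles at the cell surface, and lies at chr8:71534255-71537456 on the minus strand. It was at 446, 443, 397, 358 and 442 FPKM in MAM replicates 1 to 5 and at 21.5, 23.3, 15.9, 22.8 and 18.4 FPKM in RAM replicates 1 to 5. Bst2 had the highest RAM level of the 10 genes and the smallest fold change of the effectors, 4.42 ± 0.127 in log2 units (SE; edgeR, adjusted p = 3.8e-13). Bst2 is also a marker of plasmacytoid dendritic cells. Of 10 other marker genes of those cells 5 were tested, of which 1 was called higher and 2 lower in MAMs, against 15.3% and 15.1% of all genes tested. Ccr9, called lower, was tested through RAMs alone, and Cox6a2 and Ly6d, not called, through MAMs alone. Siglech, Klk1 and Dntt had 0 counts in all 5 MAM libraries, which allows up to 3 counts in each (counting error only). The summed FPKM of these 10 marker genes was 20.6, 24.3, 28.9, 40.7 and 27.9 in MAM replicates 1 to 5 and 70.5, 67.0, 68.8, 66.6 and 58.9 in RAM replicates 1 to 5. Runx2 made up most of the RAM sum, at a mean of 58.9 FPKM against 6.56 in MAMs, and Tcf4, the gene called higher (named after its values were seen), most of the MAM sum, at 17.0 FPKM against 3.55 in RAMs.

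Ifi44, an interferon-induced protein reported to limit virus growth, lies at chr3:151730922-151749960 on the minus strand. It was at 43.6, 46.2, 29.2, 29.1 and 33.6 FPKM in MAM replicates 1 to 5 and at 0.332, 0.378, 0.207, 0.259 and 0.197 FPKM in RAM replicates 1 to 5. MAM replicates 1 and 2 were again high. The lowest MAM library was 90.0 times the highest RAM library in CPM, the largest such ratio of the 10 genes. Its rise came to 7.22 ± 0.224 in log2 units (SE; edgeR, adjusted p = 8.4e-13), rank 49 of all genes tested. Its neighbour and relative Ifi44l had 0 counts in all 10 libraries.

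Compared per length, the order of mean levels in MAMs was Isg15 (829 ± 221 FPKM), Bst2 (417 ± 38.6), Rsad2 (375 ± 54.7), Mx1 (162 ± 6.83), Usp18 (95.6 ± 13.9), Ube2l6 (84.2 ± 16.3), Herc6 (46.8 ± 7.74), Ifi44 (36.3 ± 8.07), Mx2 (28.9 ± 6.40) and Uba7 (22.5 ± 2.64), each SD with n = 5. Bst2 and Rsad2, Usp18 and Ube2l6, Herc6 and Ifi44, Ifi44 and Mx2, and Mx2 and Uba7 were neighbours whose ranges of mean ± SD overlapped. In RAMs the order began with Bst2 (20.4 ± 3.16 FPKM), Isg15 (11.2 ± 1.47), Ube2l6 (11.2 ± 5.76) and Uba7 (10.3 ± 1.74), and the ranges of the last 3 overlapped. It ended with Herc6 (5.64 ± 0.758), Rsad2 (3.69 ± 0.663), Mx1 (1.81 ± 0.312), Usp18 (1.12 ± 0.246), Ifi44 (0.275 ± 0.0787) and Mx2 (0.196 ± 0.0802), where Ifi44 and Mx2 overlapped. Rsad2 and Mx1 thus ranked above every enzyme of the ISG15 chain in MAMs and below Uba7, Ube2l6 and Herc6 in RAMs.

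Within the MAM group most of the 10 genes were highest in replicate 1 or 2, while Mx1 was highest in replicate 4 and Mx2 in replicate 3. MAM replicate 1 was above the group mean of log2 CPM for all 10 genes, and replicate 2 for 9, against 2 in replicates 3 and 4 and 3 in replicate 5. Whether these counts differ from those over all genes was not tested. Averaged over the 10 genes, replicate 1 deviated by 0.22 and replicate 4 by -0.19 on the log2 scale. Among RAMs, replicate 4 was above its group mean for 9 genes, with Uba7 the exception, and deviated by 0.25. In none of the 20 sets of 5 CPM values, 10 genes in 2 groups, did a library stand apart from the others by Dixon's criterion.

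**Figure D2:**
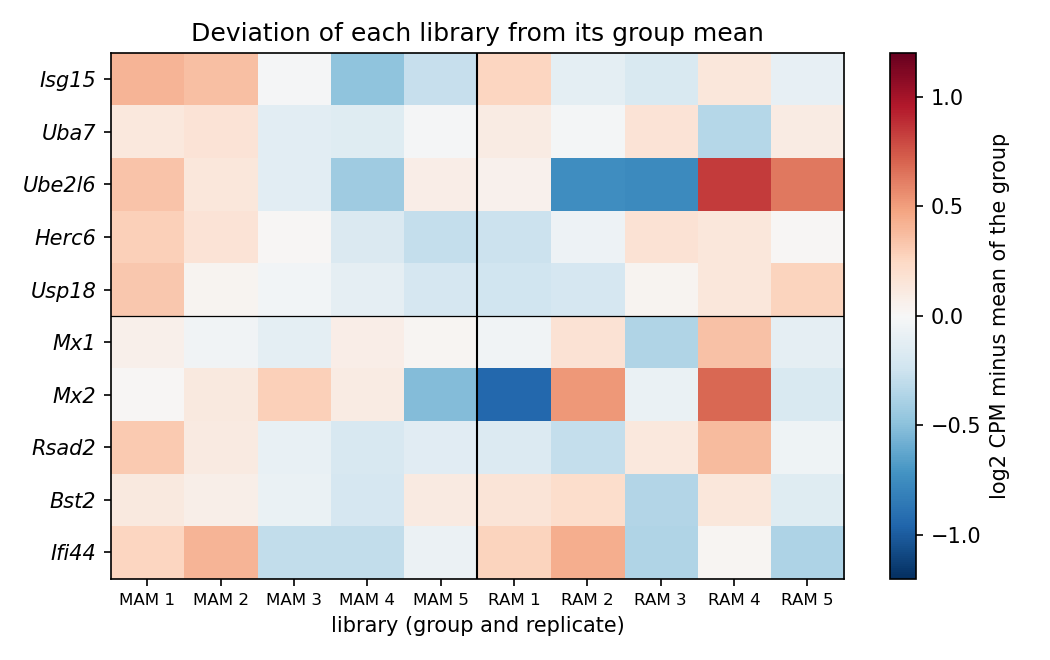
Deviation of log2 CPM from the mean of the group (colour) for each gene (rows) and library (columns, MAM left of the line and RAM right of it). MAM replicates 1 and 2 are mostly red and replicates 3, 4 and 5 mostly blue.

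Marker levels also differed among the MAM libraries. The summed FPKM of 7 neutrophil genes was 44.4, 54.7, 72.3, 134 and 86.4 in MAM replicates 1 to 5, lowest in the library where the 10 genes were highest and highest in replicate 4, where they were lowest. In RAM replicates 1 to 5 it was 54.0, 50.1, 70.1, 56.9 and 51.4. Of 5 tested neutrophil genes 3 were called higher in MAMs and 1 lower, against 15.3% and 15.1% of all genes tested. Csf3r was the most abundant in MAMs, at a mean of 32.1 FPKM against 15.4 in RAMs, while Mmp8 was the most abundant in RAMs, at 21.9 FPKM against 15.3 in MAMs (not called). Cxcr2 was called lower, with 2.28 FPKM in MAMs and 9.58 in RAMs, and Ly6g was at 0 counts in all RAM libraries.

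Sums over other lists moved among the MAM libraries in both directions. The 9 alveolar macrophage genes summed to 364, 341, 288, 205 and 228 FPKM in MAM replicates 1 to 5, and to 10537, 11464, 11552, 11369 and 9106 in RAM replicates 1 to 5. The spread among MAMs came mostly from Marco (129 ± 69.0 FPKM, SD, n = 5), while the SD of each of the other 8 was at most 7.62 FPKM. The 4 monocyte genes summed to 251, 261, 220, 191 and 209 FPKM in MAMs, also lowest in replicate 4, and to 3.99, 2.67, 2.78, 3.67 and 3.49 in RAMs. All 4 were called higher in MAMs, against 15.3% of all genes tested, 3 of them tested through MAMs alone, and Plac8 (174 ± 30.7 FPKM in MAMs, SD, n = 5) made up most of the sum and its spread. The 7 recruited macrophage genes summed to 1990, 2036, 2662, 2887 and 2443 FPKM in MAMs, lowest in replicate 1 and highest in replicate 4, and to 355, 402, 428, 332 and 377 in RAMs. Apoe (1165 ± 310 FPKM in MAMs, SD, n = 5) varied the most of these. The part of these differences in the levels of the 10 genes was not tested.

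The DNA before the start sites of Isg15, Rsad2 and Bst2 holds the core of the interferon-stimulated response element. RefSeq promoters (GRCm38.p6, 250 bases before to 50 after the start) were matched for 7 of the 10 genes: Isg15, Uba7, Ube2l6, Herc6, Rsad2, Bst2 and Ifi44. The letters GAAANNGAAA, searched on both strands, were in 3 of the 7 and in 3.44% of 32851 promoters of the same length. Uba7, Ube2l6, Herc6 and Ifi44, the last with the largest fold change of the 10, had no match. Usp18, Mx1 and Mx2 had no promoter to search. A second motif, the GAS core (letters TTCNNNGAA), was in 1 of the 7, Bst2, and in 8.30% of the promoters. The stretches around the GAAANNGAAA matches are shown with the letters matching this motif in capitals. They are given on the strand of the gene, which is the minus strand for all 3: chr4:156200855-156200916 for Isg15, chr12:26456543-26456592 for Rsad2 and chr8:71537567-71537622 for Bst2.
Isg15: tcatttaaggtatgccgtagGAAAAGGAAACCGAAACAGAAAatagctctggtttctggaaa
Rsad2: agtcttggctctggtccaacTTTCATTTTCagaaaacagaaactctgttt
Bst2: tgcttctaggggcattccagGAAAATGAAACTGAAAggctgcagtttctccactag

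The Isg15 stretch holds 3 overlapping matches between 78 and 57 bases before the start, and the Bst2 stretch 2 overlapping matches between 130 and 115 bases before it. In Rsad2 the match is on the opposite strand, 120 to 111 bases before the start. A match is a description of the sequence and not a measured site.

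Each member with a named counterpart was then set against it within each library, a ratio of counts that does not depend on scaling between libraries. Of 8 pairs planned, 7 could be tested, since Ifi44l had no counts. The log2 ratio of Isg15 to the ubiquitin gene Ubb was 2.51, 2.67, 2.18, 2.04 and 1.76 in MAM replicates 1 to 5 and -3.19, -3.68, -3.49, -3.25 and -3.60 in RAM replicates 1 to 5. It was higher by 5.67 in MAMs, with no overlap (p = 0.00794 in a two-sided exact permutation test, the smallest possible with 5 libraries in each group, and 0.0139 adjusted over 7 pairs). Ratios compare counts, not levels per length, so only their change between groups is read.

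The enzymes of the ISG15 chain also rose relative to those of the ubiquitin chain. The log2 ratio of Ube2l6 to Ube2l3 was higher in MAMs by 2.69, that of Herc6 to the related ligase gene Herc3 by 2.24, and that of Uba7 to the ubiquitin-activating enzyme gene Uba1 by 0.59. No library overlapped between groups in these 3 pairs (exact permutation test, p = 0.00794 and adjusted p = 0.0139 for each). For Uba7 the means were -2.30 ± 0.0621 in MAMs and -2.89 ± 0.182 in RAMs (SD, n = 5 each), a smaller change than that of Uba7 alone, since Uba1 itself had a log2 fold change of 0.64 (not called).

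Pairs of induced genes kept overlapping ratios when all libraries were used. The log2 ratio of Usp18 to Isg15 was -1.43, -1.68, -1.37, -0.98 and -1.27 in MAM replicates 1 to 5 and -1.88, -1.46, -1.16, -1.38 and -1.0 in RAM replicates 1 to 5, a difference of 0.03 (exact permutation test, p = 0.881, adjusted p = 0.881). That of Rsad2 to Cmpk2, a nucleotide kinase gene 12751 bases away on the other strand, differed by 0.17 (exact permutation test, p = 0.50, adjusted p = 0.583). That of Mx2 to Mx1 differed by 0.45 (exact permutation test, p = 0.135, adjusted p = 0.189), and by 0.58 without MAM replicate 5 (exact permutation test, p = 0.0159). With that library left out the groups no longer overlapped, the lowest MAM ratio being -2.62 and the highest RAM ratio -2.65. Without RAM replicate 1 the difference for this pair was 0.21 (exact permutation test, p = 0.270). With FPKM + 1 in place of counts, the difference was -0.55 for Usp18 to Isg15 (exact permutation test, p = 0.0159) and -1.25 for Mx2 to Mx1 (exact permutation test, p = 0.00794), where the added 1 is close to the mean RAM level of Usp18 (1.12 FPKM) and above that of Mx2 (0.196 FPKM). For Rsad2 to Cmpk2 it was 0.49 with FPKM + 1 (exact permutation test, p = 0.0238), and counts gave 0.00 to 0.33 with each library left out. A p that misses the threshold does not show that the ratios were equal.

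**Figure D3:**
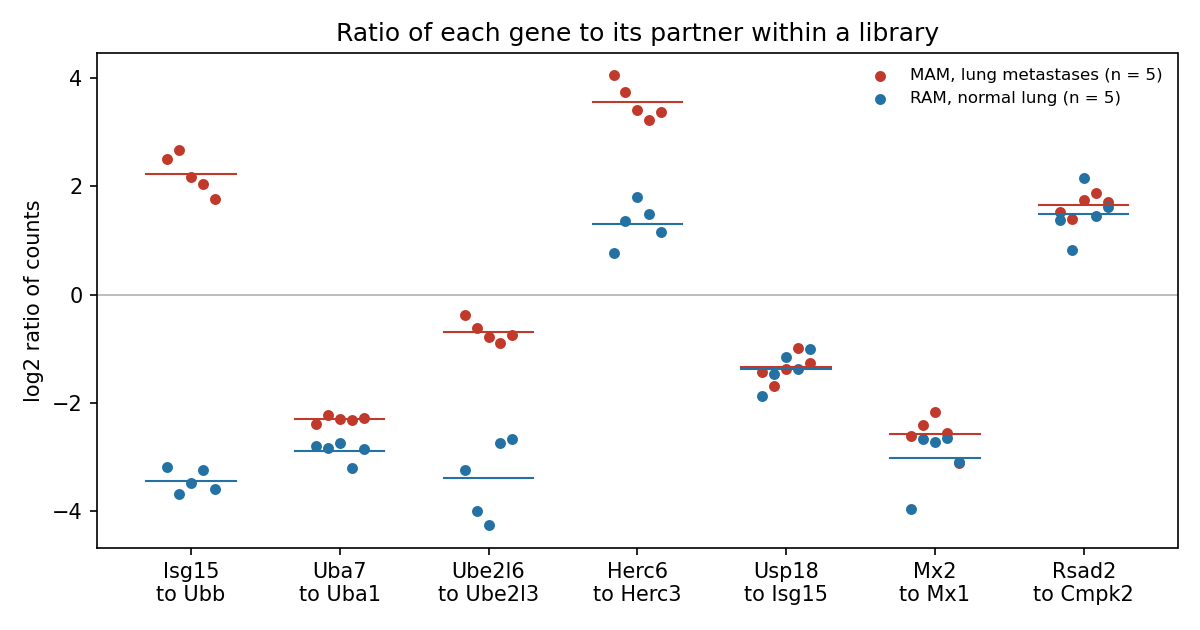
Log2 ratio of counts of each gene to its partner in each MAM library (red) and RAM library (blue), replicates 1 to 5 from left to right, with a line at each mean (n = 5). The groups are apart in the 4 pairs with a ubiquitin gene or Herc3 and overlap in the 3 pairs of induced genes.

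The RAM levels of several of these genes were close to the lowest share seen among abundant genes. The mean RAM level was 0.660% of the MAM level for Ifi44, 0.808% for Mx2, 0.972% for Rsad2, 1.06% for Mx1, and 1.30% for Isg15 and for Usp18. It was 4.67% for Bst2, 12.2% for Herc6, 13% for Ube2l6 and 42.9% for Uba7. Among the 115 genes above 1000 CPM in MAMs the lowest such share was 0.912%, for C1qb, and among the 80 genes above 1000 CPM in RAMs the lowest MAM share was 1.07%, for Plet1. Of the 6 genes with the lowest shares only Rsad2 is above 1000 CPM in MAMs. Among the 2352 genes above 100 CPM in MAMs, Ifi44 had the lowest share and 31 genes were under 1%, and among the 2067 genes above 100 CPM in RAMs the lowest MAM share was 0.621%, for Dnah11, with 8 genes under 1%. C1qb, Plet1 and Dnah11 were named after their values were seen. Whether the reads of the 6 genes with the lowest shares in RAM libraries came from RAMs was not tested. With 1% of the other group's level subtracted, and results below 0 set to 0, the log2 fold changes of these 6 genes were all larger, the least being 7.80 for Isg15. Their size then rests on few or no remaining RAM counts and is not exact, so the other values are not given. That of Bst2 was 4.72.

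**Figure D4:**
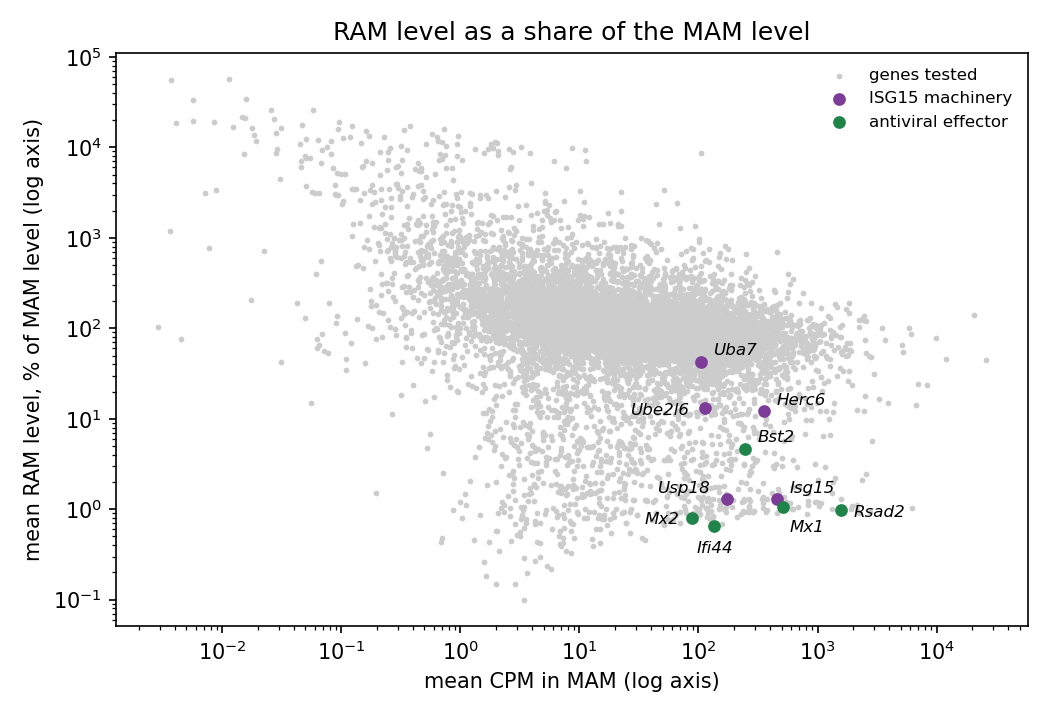
Mean RAM level as a percentage of the mean MAM level (log axis) against mean CPM in MAMs (log axis), for genes tested with a mean above 0 in both groups (grey), the ISG15 machinery (purple) and the antiviral effectors (green). Isg15, Usp18, Mx1, Mx2, Rsad2 and Ifi44 lie between 0.660% and 1.30%, on the lower edge of the abundant genes.

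Other genes of the pathway were taken from fixed lists, which were also chosen with earlier results of these data known. Of 10 other genes tied to ISG15, 9 were tested, none was called higher and 2 were called lower, against 15.3% and 15.1% of all genes tested. The median log2 fold change was -0.11, and -0.27 under upper-quartile scaling and -0.33 with library totals alone. Trim25, a ligase that attaches ISG15 to some targets, was at 0.70, Itgb2 at 0.43 and Arih1 at 0.37, all under the 2-fold limit. Itgal, which with Itgb2 forms the LFA-1 integrin known as a receptor for secreted ISG15, was lower at -2.52 (adjusted p = 1.3e-10 in the edgeR test), with 22.6 ± 4.56 FPKM in MAMs and 132 ± 4.70 in RAMs (SD, n = 5 each). The protease gene Usp2 was lower at -1.13 (adjusted p = 3.4e-04 in the edgeR test), a call that limma on FPKM and a test against a fold change of 2 did not make.

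None of the 10 tested ubiquitin counterparts was called in either direction, against 15.3% of all genes tested called higher and 15.1% called lower, with a median log2 fold change of 0.47 (0.31 under upper-quartile scaling and 0.24 with library totals alone). Herc3 had the highest log2 fold change, 0.78. Of 14 tested genes of other ubiquitin-like modifiers and their activating enzymes, also none was called, with a median of 0.17 that became 0.00 under upper-quartile scaling and -0.06 with library totals alone. Atg12 (0.73), Uba3 (0.64) and Urm1 (0.62) were the highest of these. Among the 4 tested dynamin relatives of Mx, only Dnm1 was called higher (15.3% of all genes tested were), at a log2 fold change of 4.55, with 2.84 ± 1.54 FPKM in MAMs and 0.0578 ± 0.0301 in RAMs (SD, n = 5 each). It was tested only through MAMs, and RAM libraries held 5 to 59 counts of it. Dnm2 (0.02) and Dnm1l (-0.01) were not called.

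Of 27 tested interferon-induced antiviral genes outside the 10, 23 were called higher and none lower, against 15.3% and 15.1% of all genes tested, with a median log2 fold change of 2.23. Cmpk2 (6.52), Phf11b (6.26) and Rtp4 (5.92) had the highest values. The 4 not called, named after their values were seen, were Ch25h (0.93), Shisa5 (0.75), Pnpt1 (0.52) and Ifi27 (0.04). Of 10 tested genes of interferon receptors and signalling, 7 were called higher and none lower, against the same 15.3% and 15.1%, with a median of 1.90. Irf7, a transcription factor that amplifies interferon production, had a log2 fold change of 5.81, Stat2 2.76 and the receptor gene Ifnar1 2.15.

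Most interferon genes had no counts. Only uniquely placed reads were counted, so reads that fit more than 1 of these genes would be missing. A 0 also allows up to 3 counts in a library (counting error only), so it does not show that a gene was silent. Of 21 ligand genes, 15 had 0 counts in all 10 libraries and 18 had 0 in all MAM libraries. The 3 with any count in MAMs, 2 of them named after their values were seen, were Ifnb1, with 16 counts in replicate 3, 8 in replicate 5 and 0 elsewhere, Ifnz, with 1 count in replicate 1, and Ifnk. In RAMs, and not in MAMs, there were also counts of Ifnab (17, 3 and 67 in replicates 1, 2 and 5), Ifng (1 and 23 in replicates 2 and 3) and Ifna13 (6 in replicate 1), and Ifnz had 1 to 6 counts in each RAM library, all named after their values were seen. Ifnk was the only ligand tested, through RAMs alone, and was called lower in MAMs, at a log2 fold change of -1.64 (adjusted p = 0.00947 in the edgeR test), with 24 to 271 counts in MAMs and 238 to 520 in RAMs. Its groups overlapped, and the call was lost in a test against a fold change of 2 (adjusted p = 0.139 in edgeR).

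**Figure D5:**
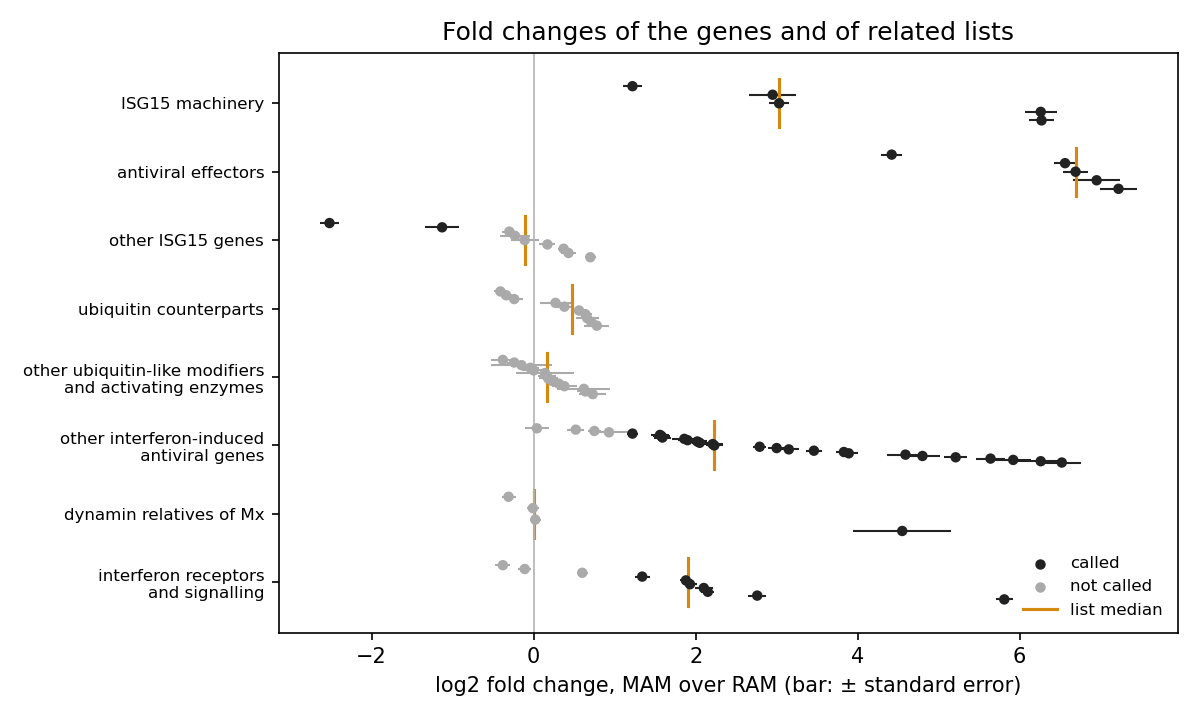
Log2 fold change of MAMs over RAMs with its standard error for each tested gene of the ISG15 machinery, the antiviral effectors and 6 related lists. Black points were called, grey points were not, and the orange line is the median of the list. The ubiquitin genes lie near 0 and the antiviral effectors between 4.42 and 7.22.

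The 5 tested genes outside all lists with the profile closest to the mean of the 10, by Euclidean distance of centred log2 CPM over the 10 libraries, were Ccnd1 (0.747), Wfdc17 (0.770), Msr1 (0.772), Ifi204 (0.775) and Ceacam1 (0.824). Their log2 fold changes lay between 4.84 for Ifi204 and 5.57 for Msr1. The 10 genes themselves were 1.27 (Bst2) to 6.27 (Uba7) from their own mean profile, since their fold changes differ.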

How the data were processed

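RNA-seq libraries of sorted macrophages were made with the Ovation RNA-Seq System V2 kit. Per the labels and the study's methods, the authors aligned reads to GRCm38/mm10 with TopHat2 2.0.13 and took gene counts from uniquely placed reads with HTSeq 0.6.1, using RefGene models of UCSC. The deposited counts are whole numbers per gene, not normalized. The authors also deposited FPKM values from Cufflinks 2.2.1. Lines naming no gene held 56.5% of the total in MAMs and 63.2% in RAMs (means, n = 5) and were left out.

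Counts were tested with edgeR 4.0.16 (R 4.3.3, TMM scaling, quasi-likelihood, Benjamini-Hochberg over 11571 genes). Genes with a mean FPKM under 1 in both groups, 78 genes without FPKM and 51 genes past the FPKM limit with 0 counts in every library were not tested. The fit was tested on simulated data: of 50 genes changed 2-fold, 21 were called, and of 50 changed 4-fold, 50. A 2-fold change lies on the call limit itself. The simulation gave all genes the same dispersion and changed far fewer genes than were called here, so it does not measure recovery in these data. Pairs were tested with exact permutation tests (scipy 1.17.1) on counts + 0.5. Adjustment was over 7 pairs and not the 8 planned, because Ifi44l had 0 counts. Log2 CPM used a prior count of 2. Alternatives were other scalings and filters, DESeq2 1.42.0, limma 3.58.1 on FPKM, a replicate block, a test against a fold change of 2, 1% subtraction, and each library left out.

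Genes named were the 10, their partners, the 3 highest and, where called lower, 3 lowest fold changes of each list, the most abundant gene of each marker list over all libraries and the 5 closest profiles, from which the text gives those it needs. Other marker genes were named after their values were seen. The members and lists were chosen with earlier results of these data known.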

Additional observations from a re-analysis of the deposited data

How the results depend on the processing

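All 10 genes were called higher in MAMs under every alternative except scaling to library totals alone, where 9 were, with Uba7 at a log2 fold change of 0.99. The highest adjusted p of any of the 10 over the alternatives was 4.1e-02, for Uba7 in edgeR's test against a fold change of 2. The count over all genes was 1766, from 1399 in that test to 2349 without a filter. With the replicate block it was 1753, and all 10 genes were called. Same-numbered MAM and RAM libraries did not deviate together (correlations from -0.0366 to 0.0294 across genes), so they were not treated as pairs.

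The median of all genes moved from -0.02 to -0.18 under upper-quartile scaling and to -0.24 with library totals alone, and list medians moved with it, as the scaling shifts every gene. With upper-quartile scaling the medians were -0.27 for other ISG15 genes, 0.31 for ubiquitin counterparts, 0.00 for other ubiquitin-like genes, -0.16 for dynamin relatives and 1.74 for receptors and signalling. With library totals alone these 5 were -0.33, 0.24, -0.06, -0.22 and 1.68, and the medians were 6.46 for the effectors and 2.00 for other antiviral genes.

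With FPKM + 1, the pair differences were -0.55 for Usp18 to Isg15, -1.25 for Mx2 to Mx1 and 0.49 for Rsad2 to Cmpk2 (exact permutation tests, p = 0.0159, 0.00794 and 0.0238). With each library left out, Mx2 to Mx1 ran from 0.21 without RAM replicate 1 to 0.58 without MAM replicate 5. The cause was not tested. RAM counts of Mx2, 19 to 64, limit its precision.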

Other observations

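Other marker lists were mostly low in MAMs. Summed FPKM of 5 B cell genes was 1.81 to 11.6 in MAMs and 1.85 to 10.1 in RAMs, and that of 6 T and NK cell genes 0.586 to 3.22 and 1.09 to 3.28, with Cd79b the most abundant B cell gene in MAMs and Cd79a in RAMs, and Cd3e the most abundant T cell gene. The sum of 5 conventional dendritic cell genes was 0.949 to 3.40 in MAMs and 4.33 to 5.51 in RAMs. Clec9a made up most of the RAM sum, at a mean of 4.28 FPKM against 0.275 in MAMs. Zbtb46, Xcr1 and Cd209a ran the other way, at 0.826, 0.242 and 0.725 FPKM in MAMs against 0.484, 0.0963 and 0.00517 in RAMs. Flt3 was at 0 FPKM in MAMs and 0.00995 in RAMs. The 5 endothelial and stromal genes, of which 3 were tested, through MAMs alone, which favours a call in that direction, and all 3 were called higher, against 15.3% of all genes tested, summed to 6.08 to 11.6 in MAMs and 0.574 to 2.73 in RAMs, with Pecam1 the most abundant in MAMs, at 4.89 ± 2.72 FPKM in MAMs (SD, n = 5).

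Of 5 tested epithelial and tumour genes 4 were called lower in MAMs, against 15.1% of all genes tested, 1 of them tested through RAMs alone. Keratin genes Krt18 and Krt8 ran the other way, with 1.63 ± 3.52 and 0.851 ± 0.619 FPKM in MAMs and 0.134 ± 0.177 and 0.0254 ± 0.0568 in RAMs (SD, n = 5 each). Krt18 was not called, and Krt8 was not tested. The sum of all 7 was 10.3 to 23.7 FPKM in MAMs and 561 to 698 in RAMs. Krt19, the most abundant, had a mean of 7.07 in MAMs and 540 in RAMs. In RAMs the means were 47.0 FPKM for Epcam, 30.6 for Cdh1, 23.6 for Sftpc and 0.790 for Sftpa1. In MAMs they were 0.438, 1.19, 6.50 and 0.240, in the same order. Which cells this RNA came from was not tested. Hemoglobin genes were at 0 counts in all libraries, while the FPKM table lists Hbb-bs at 2.94 ± 5.79 in MAMs (SD, n = 5).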
